A study of Oryza sativa Japonica Group with 8 samples.

Results

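The step from the second to the third day without water was followed in leaves of japonica rice (Oryza sativa), variety Ilmi, by setting drought day 3 against drought day 2. Seedlings had germinated on MS medium for 4 days at 28 °C, and were grown 3 to a pot of soil in a greenhouse. Water was withheld from the age of 5 weeks, with the soil water of the pots set to about 75%, and the treatments sampled were no water for 3 days, 2 days or 1 day, and well-watered plants. Each treatment was sequenced as a strand-specific total RNA library and as a strand-specific mRNA library (enriched for polyadenylated RNA by the kit), so that 4 of the 8 libraries of the series make up the step and the other 4 give the earlier course. Each group is 1 library, so there was no test and no p-value, and the labels do not say whether both kinds of library came from the same RNA. Agreement between the kinds therefore cannot be read as a measure of the spread between plants.

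The values are the authors' FPKM, fragment counts scaled to transcript length and library size, summed over the transcripts of a gene. The step is the log2 ratio of FPKM + 1, day 3 over day 2, within each kind of library. Adding 1 makes the ratio of weakly expressed genes smaller than their true difference. Of 31143 genes in the series, 27626 were in both kinds and 18113 had a mean of at least 1 FPKM over the 4 libraries of each kind, and these were compared. A gene is called higher or lower, and said to have risen or fallen, when it differed by at least 2-fold in the same direction in both kinds.

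As background, a leaf that loses water makes abscisic acid (ABA), a hormone that closes stomata. ABA receptors block protein phosphatases of type 2C, which otherwise silence SnRK2 kinases, and the freed kinases activate bZIP transcription factors. Among the best known targets of this pathway are late embryogenesis abundant (LEA) proteins and dehydrins, small hydrophilic proteins that accumulate in drying seeds and in leaves short of water. Genes of photosynthesis and growth are commonly turned down as drought becomes severe.

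On day 3, 1336 genes were higher than on day 2 in both kinds (7.38% of the 18113) and 2742 were lower (15.1%). The other 14035 genes (77.5%) were not called. Among the larger differences the sides were nearly even, with 435 genes at least 4-fold higher and 417 at least 4-fold lower, and at 8-fold there were 130 higher and 74 lower. The median gene stood at -0.35 (log2) in total RNA and at -0.46 in mRNA, so that a gene with an unremarkable step is below 0. This shift depends on how libraries are scaled. With median-ratio scaling, which puts the median gene at 0.01 and 0.03, 2392 genes were higher and 1288 lower, and with the deposited quantile-normalized values (medians of -0.14 in both kinds) 1606 were higher and 1462 lower. Without the 10 most abundant genes in the totals, 1210 were higher and 3116 lower. The share of higher among called genes thus ran from 28.0% to 65.0%, against 32.8% on FPKM, and which side is larger depends on the scaling. Both sets of genes depended on it as well. Of the 1336 higher genes 1204 (90.1%) were higher on all 4 scalings, but they made up 55.9% of the 2392 higher genes under median-ratio scaling. Of the 2742 lower genes 1208 (44.1%) were lower on all 4.

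The kinds of library gave similar steps. Across the 18113 genes, which are not independent replicates, the ratios in total RNA and mRNA had a Pearson's r of 0.930 and a Spearman's rho of 0.893, and the median absolute difference between the kinds was 0.20 (log2). Of 1650 genes at least 2-fold higher in total RNA, 1336 (81.0%) were so in mRNA as well, and of 3369 lower genes 2742 (81.4%). The plot of the step in both kinds shows called genes along the diagonal at either end, with few genes off it.

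**Figure D1:**
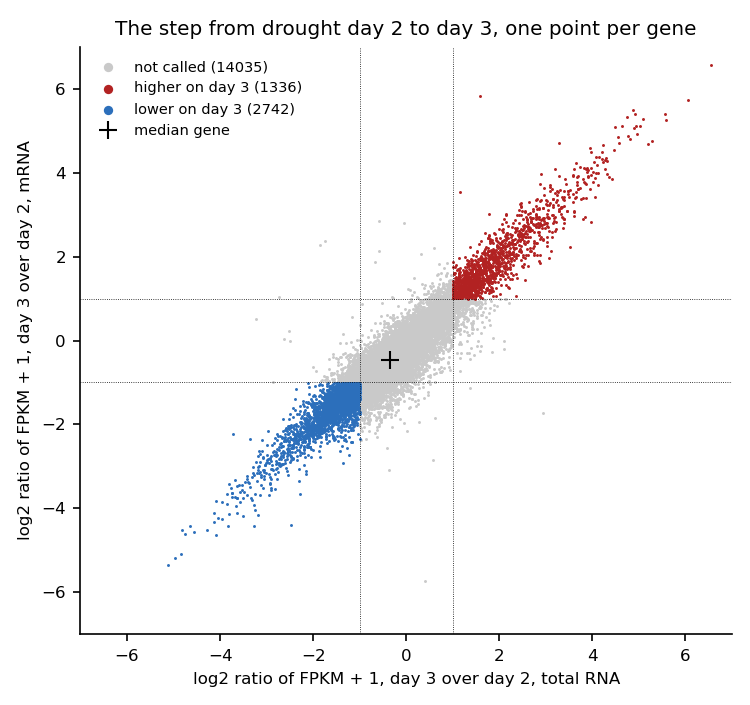
The log2 ratio of FPKM + 1, day 3 over day 2, in total RNA libraries (x axis) and mRNA libraries (y axis), with 1 point for each of the 18113 genes and dotted lines at 2-fold. Genes higher on day 3 (1336) and lower on day 3 (2742) in both kinds are coloured, and the cross, at -0.35 and -0.46, marks the median gene.

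Functions were described with 71 lists of genes defined by words in the gene descriptions of the files, each read against the 7.38% higher and 15.1% lower among all genes. Genes rose and fell within the same list in 51 of them, 5 lists held higher genes and no lower ones, 13 held lower genes and no higher ones, and 2 held neither. The medians of LEA proteins and dehydrins lay 3.16 and 3.41 above the median gene in total RNA and mRNA, and those of JAZ and TIFY repressors 2.14 and 2.42 above it. Those of the Rubisco small subunit and Calvin cycle genes lay at -3.11 and -2.99 from it, and those of the leaf mesophyll markers, which share genes with that list, at -3.24 and -2.98.

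**Figure D2:**
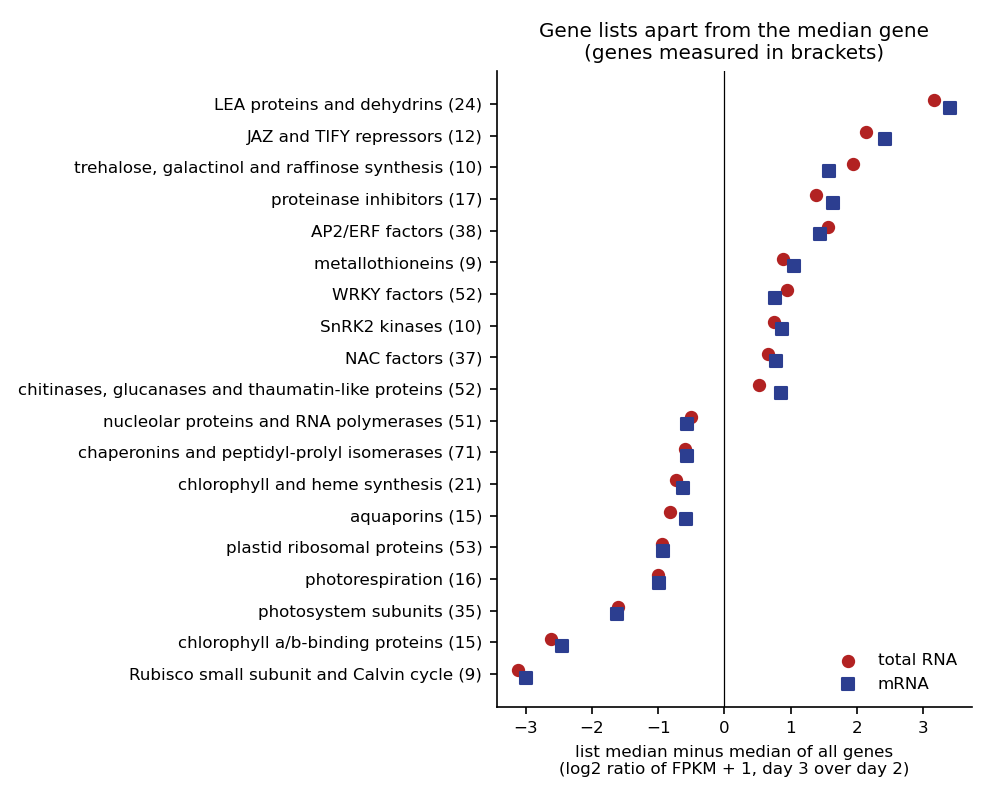
Medians of gene lists minus the median of all genes (x axis, log2 ratio of FPKM + 1, day 3 over day 2) in total RNA (circles) and mRNA (squares), for the lists of at least 5 measured genes that lie 0.5 or more from the median gene in both kinds, the leaf mesophyll markers left out. The number of genes measured is in brackets. LEA proteins and dehydrins lie at 3.16 and 3.41, and Rubisco small subunit and Calvin cycle genes at -3.11 and -2.99.

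LEA proteins and dehydrins rose more than any other list. Of 24 measured members 18 were higher (75.0%) and 1 was lower, with medians of 2.81 in total RNA and 2.95 in mRNA, and 17 were higher on all 4 scalings. Together they held 2.87% of all FPKM on day 3 against 0.330% on day 2 in total RNA, and 3.07% against 0.350% in mRNA. The most abundant was Os11g0454300, described as the water-stress inducible protein RAB21, at 6737 FPKM on day 3 against 473 FPKM on day 2 in total RNA and at 7279 against 418 FPKM in mRNA (log2 ratios of 3.83 and 4.12). On day 3 no other gene was as abundant in either kind of library. It lies in a run of neighbouring dehydrin genes on chromosome 11 (15320288 to 15343671, IRGSP-1.0), and all 4 members of the run rose. RAB 16B (Os11g0454200) stood at 1833 against 58.9 FPKM in total RNA and at 1637 against 45.8 FPKM in mRNA. RAB 16C (Os11g0454000) stood at 484 against 13.3 FPKM and at 787 against 19.2 FPKM, which with log2 ratios of 5.08 and 5.29 was the largest step of the run. RAB 16D (Os11g0453900) was the weakest, at 12.6 against 3.04 FPKM and at 20.5 against 2.95 FPKM.

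Outside that run, the group 3 LEA gene Os05g0542500 reached 2775 FPKM on day 3 against 343 FPKM on day 2 in total RNA and 4634 against 666 FPKM in mRNA. A dehydrin on chromosome 2, Os02g0669100, reached 2964 against 210 FPKM and 2693 against 184 FPKM. The LEA gene Os03g0168100 had a steeper step (5.20 and 4.68), with 247 against 5.75 FPKM in total RNA and 428 against 15.8 FPKM in mRNA. The list was not uniform. Os06g0119900, of the LEA-14 type, fell to 1.51 FPKM on day 3 against 5.71 FPKM on day 2 in total RNA and to 1.47 against 4.60 FPKM in mRNA, and 5 members were not called, among them the LEA 2 gene Os03g0843300 with 154 against 128 FPKM and 195 against 134 FPKM.

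Enzymes that make protective sugars also rose. Of 10 measured genes for trehalose, galactinol and raffinose synthesis 5 were higher and none lower, with medians of 1.59 and 1.12, and 8 were higher under median-ratio scaling. The raffinose synthase family gene Os01g0170000 stood at 279 FPKM on day 3 against 21.1 FPKM on day 2 in total RNA and at 137 against 8.24 FPKM in mRNA. Galactinol synthase, which makes the galactose donor for raffinose, stood at 345 against 45.5 FPKM and at 202 against 28.9 FPKM (Os03g0316200). Os07g0687900, described as a protein induced by water stress (WSI76), was at 965 against 39.6 FPKM and at 472 against 16.9 FPKM, with log2 ratios of 4.57 and 4.72. The galactinol synthase gene was already higher on day 2 than before. It held 21.7, 19.4 and 45.5 FPKM in total RNA of well-watered, day 1 and day 2 plants, and 11.9, 11.2 and 28.9 FPKM in mRNA.

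The small heat shock proteins took another course. None of 15 measured small heat shock protein genes rose and 5 fell, 4 of them on all 4 scalings, and their share of FPKM was 0.109% on day 3 against 0.293% on day 2 in total RNA and 0.0842% against 0.312% in mRNA. Their median in mRNA was -0.49, but 0.05 under median-ratio scaling. The mitochondrial small heat shock protein gene Os02g0758000 held 8.95, 106, 561 and 35.3 FPKM in total RNA over well-watered, day 1, day 2 and day 3 plants, and 11.5, 120, 630 and 32.3 FPKM in mRNA, so that it peaked on day 2. A class II gene, Os01g0184100, held 151 FPKM on day 3 against 524 FPKM on day 2 in total RNA and 183 against 712 FPKM in mRNA. The larger chaperones were close to the shares of all genes. Of 113 measured genes for Hsp70, Hsp90, Hsp100 and DnaJ proteins 6 were higher (5.31%) and 19 lower (16.8%), against 7.38% and 15.1% of all genes. Under median-ratio scaling 7 were on each side. A heat shock protein 70 gene, Os03g0277300, rose to 110 FPKM on day 3 against 20.5 FPKM on day 2 in total RNA, while another of the family, Os01g0840100, fell to 109 against 438 FPKM. Among 19 genes described as heat shock factors, of more than 1 type, 5 rose and 3 fell, with 7 and 1 under median-ratio scaling. Os03g0161900, a factor of type A-2d, held 3.93 FPKM on day 3 against 68.7 FPKM on day 2 in total RNA and 4.37 against 115 FPKM in mRNA. Os01g0571300, described as similar to factor 31, held 28.4 against 1.11 FPKM and 24.0 against 1.37 FPKM.

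Some members of the kinase, phosphatase and bZIP families that serve the ABA pathway rose. The phosphatase and bZIP lists come from words in descriptions, so not every member need act in that pathway. Of 10 measured SnRK2 kinases, called SAPK in rice, 2 were higher, 1 was lower and 7 were not called, and under median-ratio scaling 5 were higher and 1 lower. SAPK9 (Os12g0586100) stood at 56.5 FPKM on day 3 against 2.65 FPKM on day 2 in total RNA and at 58.2 against 2.81 FPKM in mRNA, after values between 2.65 and 4.99 FPKM in the 6 libraries of the earlier treatments. SAPK2 (Os07g0622000) stood at 57.8 against 19.0 FPKM and at 97.3 against 27.5 FPKM. SAPK7 (Os04g0432000) fell to 2.32 against 18.1 FPKM and to 2.50 against 15.3 FPKM. SAPK1 and SAPK6, more abundant than these, were not called: SAPK1 (Os03g0390200) held 256 against 143 FPKM in total RNA and SAPK6 (Os02g0551100) 191 against 127 FPKM.

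Of 50 measured genes of the protein phosphatase 2C list, 8 were higher and 2 were lower, and 14 were higher and none lower under median-ratio scaling. Os06g0698300 was the most abundant of those named by the rule, at 704 FPKM on day 3 against 183 FPKM on day 2 in total RNA and at 741 against 204 FPKM in mRNA. Os09g0325700 stood at 267 against 66.0 FPKM and at 240 against 74.4 FPKM. Among 33 bZIP factors 5 rose and 1 fell. TRAB1 (Os08g0472000), a rice factor that binds ABA response elements, was close to the threshold in mRNA, with 24.6 against 7.26 FPKM in total RNA and 32.8 against 15.7 FPKM in mRNA (log2 ratios of 1.63 and 1.02). The abundant bZIP gene Os01g0279100 fell to 57.0 FPKM on day 3 against 300 FPKM on day 2 in total RNA.

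AP2/ERF factors, which include the DREB proteins that bind drought response elements and the factors of ethylene responses, had 18 of 38 measured members higher (47.4%) and 1 lower, and the same 18 and 1 on all 4 scalings. The medians were 1.21 and 0.98. The dehydration-responsive element-binding protein 1C gene (Os06g0127100) rose most, with 75.3 FPKM on day 3 against 1.56 FPKM on day 2 in total RNA and 79.5 against 1.39 FPKM in mRNA. Its values had been below 1.6 FPKM in every earlier library. The RAP2.6-like genes Os03g0183000, Os04g0610400, Os09g0457900 and Os12g0168100 all rose; Os04g0610400 held 152 against 33.4 FPKM and 99.0 against 26.6 FPKM. The DREB 2B gene Os02g0752800 shows a gap between the kinds, with 75.3 against 25.7 FPKM in total RNA but 485 against 398 FPKM in mRNA, and was not called.

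WRKY factors, best known from pathogen responses, had 16 of 52 measured members higher (30.8%) and 3 lower. Under median-ratio scaling 22 were higher and 0 lower, and on the quantile-normalized values 20 and 0. WRKY24 (Os01g0826400) held 64.3 FPKM on day 3 against 8.09 FPKM on day 2 in total RNA and 38.8 against 3.54 FPKM in mRNA. Of 37 NAC factors 11 rose and 6 fell, with 13 and 3 under median-ratio scaling. Os03g0327800, described as NAC domain protein 29, stood at 462 against 66.2 FPKM and at 403 against 51.1 FPKM. A pair of NAC neighbours on chromosome 12 moved apart. Os12g0123800 rose to 16.8 FPKM on day 3 against 2.33 FPKM on day 2 in total RNA and to 14.5 against 1.54 FPKM in mRNA, while Os12g0123700 fell to 34.6 against 117 FPKM and to 46.5 against 141 FPKM.

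Some other families of transcription factors had about as many genes higher as lower on FPKM. Among all genes 7.38% were higher and 15.1% lower, so even counts are not the background. Of 68 MYB factors 6 rose (8.82%) and 7 fell (10.3%), with 14 and 3 under median-ratio scaling. Of 56 basic helix-loop-helix factors 7 rose and 7 fell (12.5% each), with 11 and 3 under that scaling. Of 52 C2H2 zinc finger genes 5 rose and 5 fell (9.62% each), with 5 and 2 under it. The C2H2 gene Os03g0437200 had a large step all the same, with 31.7 FPKM on day 3 against 0.942 FPKM on day 2 in total RNA and 24.5 against 0.222 FPKM in mRNA. B-box and CCT factors, many of which act in light and flowering responses, had more lower genes, with 3 of 26 higher and 10 lower, but 6 higher and 4 lower under median-ratio scaling. The CONSTANS-like gene Os03g0711100 held 16.2 against 87.4 FPKM and 6.66 against 38.5 FPKM.

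JAZ and TIFY proteins repress the jasmonate response and are themselves induced by jasmonate. Of 12 measured genes 7 rose (58.3%) and none fell, and the same 7 were higher on all 4 scalings, with medians of 1.79 and 1.95. The genes Os03g0180800, Os03g0180900 and Os03g0181100 stand close together on chromosome 3 and had the 3 largest log2 ratios of the list. Os03g0180900 stood at 513 FPKM on day 3 against 33.2 FPKM on day 2 in total RNA and at 527 against 34.2 FPKM in mRNA. Os03g0180800 stood at 52.6 against 1.77 FPKM and at 33.6 against 1.04 FPKM.

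Of 16 genes for making jasmonate 6 were higher (37.5%, against 7.38% of all genes). Another 3 were lower (18.8%), a share close to the 15.1% of all genes. Under median-ratio scaling 7 were higher and 3 lower. Os06g0216300, described as similar to 12-oxophytodienoic acid reductase, held 25.6 FPKM on day 3 against 1.74 FPKM on day 2 in total RNA and 53.1 against 5.32 FPKM in mRNA. The more abundant Os08g0459600, described as similar to 12-oxophytodienoate reductase 3, was not called, with 44.3 against 40.2 FPKM and 57.2 against 51.0 FPKM. The lipoxygenases, which act early, went both ways: Os08g0509100 rose to 37.1 against 3.90 FPKM and to 29.8 against 3.07 FPKM, while the far more abundant Os02g0194700 fell to 115 against 925 FPKM and to 98.7 against 746 FPKM. The summed share of the list was therefore lower on day 3, at 0.0597% of FPKM against 0.175% on day 2 in total RNA. In ethylene synthesis, an ACC synthase gene, Os04g0578000, was at 22.0 against 0.489 FPKM and at 33.7 against 0.447 FPKM, and an ACC oxidase gene, Os09g0451400, fell to 3.90 against 16.2 FPKM and to 3.05 against 11.1 FPKM. The other 7 genes of that list were not called.

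Proteinase inhibitors, proteins that block digestive enzymes of insects and microbes, had 8 of 17 measured genes higher (47.1%) and none lower, and 12 higher under median-ratio scaling. The inhibitor gene Os01g0615100 was among the 10 most abundant genes of both day 3 libraries, with 3326 FPKM on day 3 against 186 FPKM on day 2 in total RNA and 3341 against 160 FPKM in mRNA. Its neighbour Os01g0615050 held 663 against 58.7 FPKM and 626 against 51.7 FPKM, and such neighbouring copies may share reads. Among 52 genes for chitinases, glucanases and thaumatin-like proteins 15 rose and 9 fell, with 20 and 4 under median-ratio scaling. The beta-1,3-glucanase-like gene Os03g0792800 reached 144 FPKM on day 3 against 16.8 FPKM on day 2 in total RNA and 235 against 29.8 FPKM in mRNA, while Os01g0287600, similar to chitinase 10, fell to 0.529 against 7.74 FPKM and to 0.779 against 5.55 FPKM.

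Signalling kinases and calcium sensors had a few large steps within lists that were mostly not called. A MAP kinase gene, Os03g0285800, stood at 118 FPKM on day 3 against 14.2 FPKM on day 2 in total RNA and at 143 against 10.6 FPKM in mRNA, and 4 of 28 genes of the MAP kinase cascade rose and 1 fell. The EF-hand gene Os01g0135700, of the calcium-binding type, stood at 385 against 25.3 FPKM and at 259 against 14.9 FPKM, in a list of 44 with 7 higher and 2 lower, or 13 and 1 under median-ratio scaling. In the list of calcium-dependent and CIPK kinases 2 of 37 rose and 3 fell, but 6 rose and 2 fell under median-ratio scaling.

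In the lists of photosynthesis genes, lower members far outnumbered higher ones. Of 9 measured genes of the Rubisco small subunit and Calvin cycle list 8 were lower and none was called higher, with medians of -3.47 and -3.46. Under median-ratio scaling 7 were lower and 1 was higher. The most abundant small subunit gene, Os12g0291100, held 115 FPKM on day 3 against 3115 FPKM on day 2 in total RNA and 70.5 against 1752 FPKM in mRNA. The other measured copies, Os12g0274700, Os12g0291400 and Os12g0292400, had log2 ratios between -5.17 and -3.36. These copies are alike in sequence, so reads may be shared among them. Phosphoribulokinase, which regenerates the acceptor of carbon dioxide, stood at 10.5 against 141 FPKM and at 10.1 against 150 FPKM (Os02g0698000). Rubisco activase (Os11g0707000), which keeps Rubisco in its active form, stood at 393 against 3559 FPKM and at 342 against 2319 FPKM. The transketolase-like gene Os04g0266900 was not called, with 28.9 against 14.2 FPKM and 30.0 against 11.6 FPKM.

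Light harvesting followed the same direction. Of 15 measured chlorophyll a/b-binding protein genes 12 fell and none rose, with medians of -2.97 and -2.91. LHCII type I CAB-2 (Os01g0600900) held 17.1 FPKM on day 3 against 425 FPKM on day 2 in total RNA and 12.7 against 325 FPKM in mRNA. The most abundant gene of the list, Os09g0346500, held 450 against 3538 FPKM and 414 against 2960 FPKM. Of 35 photosystem subunits, a list that may take in loci similar to plastid genes, 26 fell and 1 rose. The exception was Os01g0934400, with a PsbP-like domain, at 78.8 against 3.61 FPKM and 72.8 against 4.66 FPKM. In photorespiration, the salvage of carbon lost by the oxygenase reaction of Rubisco, 10 of 16 fell and none rose, and the glycine cleavage H protein gene Os10g0516100 held 0.669 against 20.1 FPKM and 0.706 against 25.3 FPKM. Chlorophyll and heme synthesis had 10 of 21 lower and 1 higher, with 5 lower under median-ratio scaling and 6 on the quantile-normalized values. Protochlorophyllide reductase B (Os10g0496900), the enzyme that needs light to make chlorophyll, stood at 3.17 against 25.4 FPKM and 2.73 against 27.6 FPKM.

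Chlorophyll breakdown genes did not rise in this step. The staygreen gene Os04g0692600 fell to 1.73 FPKM on day 3 against 14.2 FPKM on day 2 in total RNA and to 2.54 against 19.7 FPKM in mRNA, and pheophorbide a oxygenase (Os03g0805600) fell too, with log2 ratios of -2.19 and -2.69. The other 3 measured genes of the list were not called. The leaf mesophyll markers, which are Rubisco small subunit and chlorophyll-binding genes and overlap those lists, summed to 898 FPKM on day 3 against 10722 FPKM on day 2 in total RNA and to 863 against 8994 FPKM in mRNA. In bulk RNA fewer cells of a type and less RNA per cell cannot be told apart.

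The courses of single genes show that the step did not always extend an earlier trend. RAB21 and the Tify gene had risen on each earlier day, whereas SAPK9 and LHY had stayed low until day 2. Among the lower genes, the photosynthesis genes had fallen from the start of drought, and the peroxidase, small heat shock and heat shock factor genes were higher on day 2 than in well-watered plants.

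**Figure D3:**
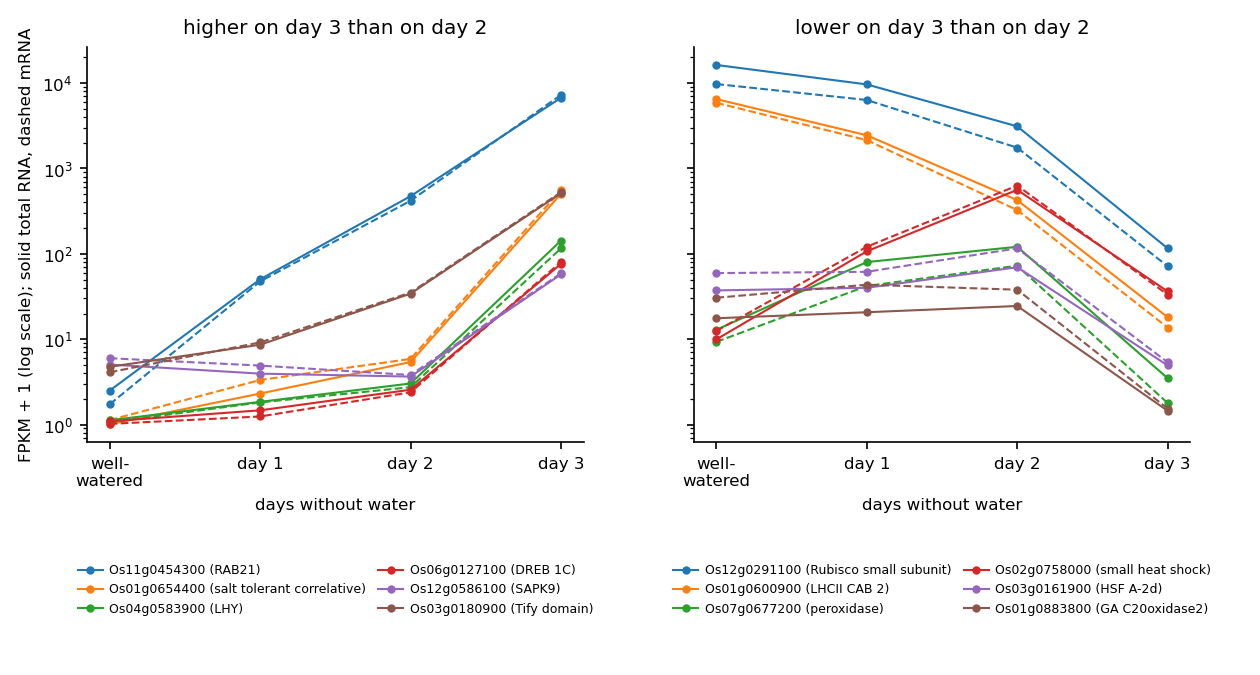
FPKM + 1 on a log scale (y axis) over the 4 treatments (x axis) for 6 genes higher on day 3 than on day 2 (left) and 6 genes lower (right), with solid lines for total RNA and dashed lines for mRNA, and 1 library per point. Os11g0454300 (RAB21) ends at 6737 and 7279 FPKM, and Os02g0758000 (small heat shock) is at its highest on day 2, with 561 and 630 FPKM.

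**Figure D4:**
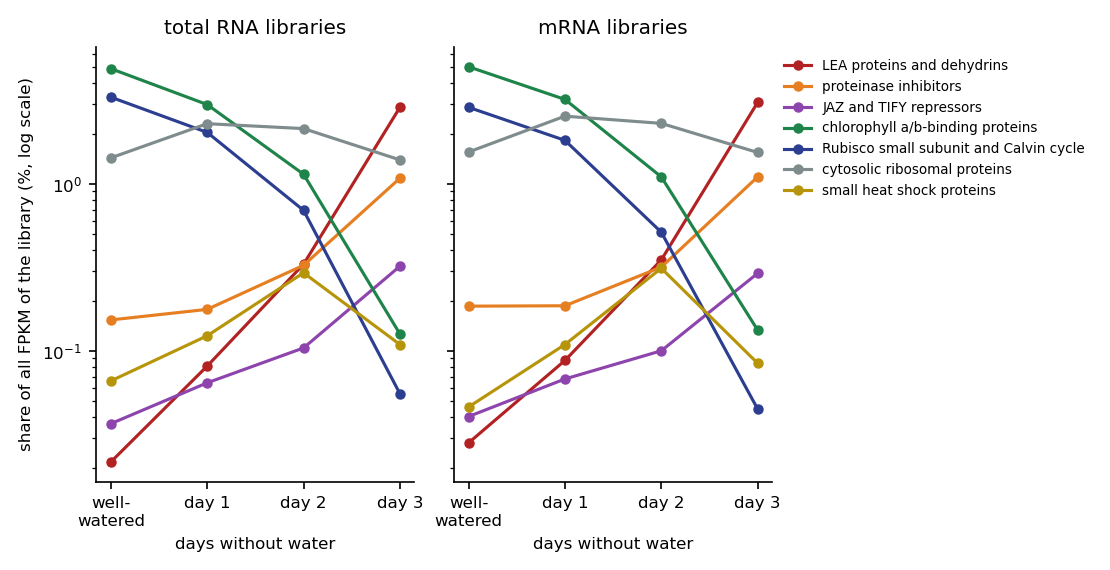
Summed FPKM of 7 gene lists as a share of all FPKM of a library (y axis, percent, log scale) over the 4 treatments (x axis), in total RNA (left) and mRNA (right), with 1 library per point. The share of LEA proteins and dehydrins rises to 2.87% and 3.07% on day 3, and that of chlorophyll a/b-binding proteins falls to 0.126% and 0.133%.

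Total RNA libraries also hold transcripts that are nearly absent from mRNA libraries, among them those of proteins usually encoded in plastids and mitochondria. For a set picked after the values were seen, 67 genes had at least 10 times the FPKM in total RNA of all 4 treatments and at least 5 FPKM there. Their median step in total RNA was -0.04, with 8 at least 2-fold higher, 8 at least 2-fold lower and 51 in between. The Rubisco large subunit loci were among the lower ones. Os01g0791033 held 4174 FPKM on day 3 against 25951 FPKM on day 2, Os10g0356000 held 1869 against 10767 FPKM and Os12g0207600 held 1233 against 6954 FPKM. Together 4 such loci held 1.08% of all FPKM on day 3 against 6.34% on day 2, and in mRNA Os01g0791033 stood at 6.44 against 6.21 FPKM. These nuclear loci are near copies of a plastid gene, and reads of the plastid transcript may have been assigned to them.

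Not all transcripts of this kind fell. The locus similar to photosystem II protein D1, the subunit that turns over fastest in light, held 3597 FPKM on day 3 against 2902 FPKM on day 2 (Os04g0473150). A locus similar to mitochondrial cytochrome c oxidase subunit 2 held 965 against 638 FPKM (Os04g0343050), and 1 similar to ATP synthase F0 subunit 6 held 202 against 211 FPKM (Os12g0424180). The ATP synthase CF1 beta locus Os10g0355800 held 62.0 against 479 FPKM. With 1 library per day, these differences have no replicate check, and there is no second kind of library to set beside them.

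**Figure D5:**
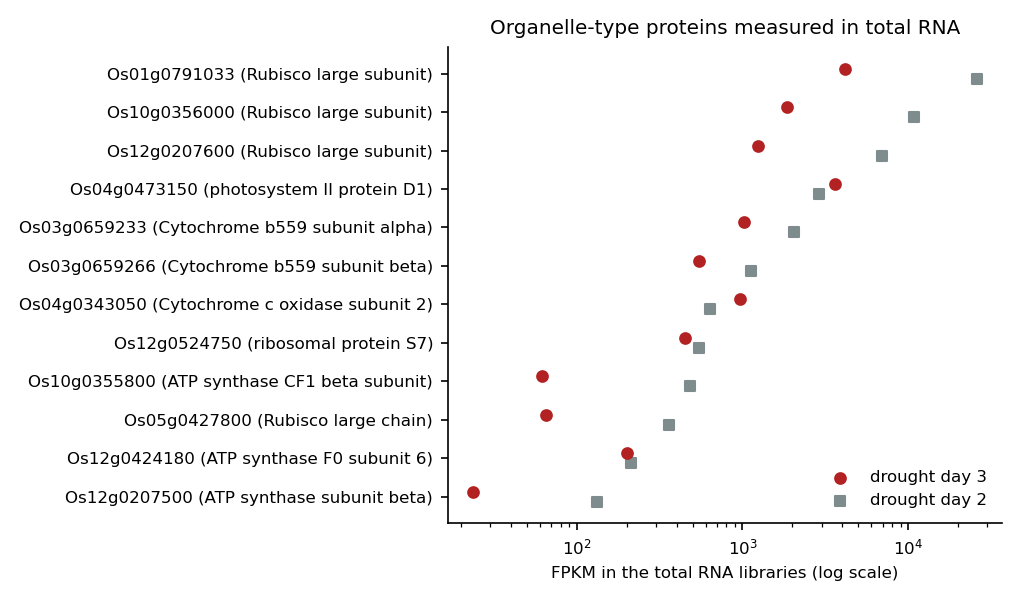
FPKM in total RNA libraries (x axis, log scale) on drought day 3 (circles) and drought day 2 (squares) for 12 loci similar to plastid or mitochondrial genes that were nearly absent from mRNA libraries. The Rubisco large subunit locus Os01g0791033 is at 4174 on day 3 and 25951 on day 2, while the photosystem II protein D1 locus is at 3597 and 2902.

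Among genes of protein synthesis, those of the plastid ribosome fell most often. Plastid ribosomal proteins had 36 of 53 measured genes lower (67.9%) and none higher, with medians of -1.29 and -1.39. Under median-ratio scaling 12 were lower and none higher. The 50S protein L40 gene Os01g0278900 held 1.29 FPKM on day 3 against 10.1 FPKM on day 2 in total RNA and 2.49 against 21.1 FPKM in mRNA. Cytosolic ribosomal proteins had 16 of 155 lower (10.3%, below the 15.1% of all genes) and none higher, but none lower and 1 higher under median-ratio scaling, and their medians of -0.72 and -0.69 were 0.37 and 0.23 below the median gene. Translation factors and tRNA synthetases had 33 of 110 lower and none higher, against 6 lower and 3 higher under median-ratio scaling. Alanyl-tRNA synthetase (Os06g0245800) held 5.99 against 24.5 FPKM and 5.11 against 28.4 FPKM. Nucleolar proteins and RNA polymerases had 21 of 51 lower and none higher, with 10 lower under median-ratio scaling and 9 on all 4 scalings.

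Chaperonins and peptidyl-prolyl isomerases, which help proteins to fold, had 30 of 71 measured genes lower (42.3%) and 1 higher, and 17 were lower on all 4 scalings. The 10 kDa chaperonin gene Os07g0641700 held 56.9 FPKM on day 3 against 308 FPKM on day 2 in total RNA and 45.2 against 248 FPKM in mRNA, after a course that had climbed until day 2. Os07g0569600, with the domain of the Rubisco assembly factor RbcX, held 4.38 against 27.0 FPKM and 3.21 against 21.3 FPKM. No gene was called among 49 of the proteasome, the complex that degrades tagged proteins, or among 44 of the respiratory chain and ATP synthase. The proteasome medians were -0.30 and -0.29 and those of the respiratory chain -0.16 and -0.11. Ubiquitin ligases, which tag proteins for the proteasome, had 30 of 340 higher (8.82%) and 21 lower (6.18%), against 7.38% and 15.1% of all genes. Under median-ratio scaling 59 were higher and 5 lower.

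Water channels were mostly lower. Of 15 measured aquaporins 8 fell and 1 rose, and under median-ratio scaling 5 fell and 2 rose. The aquaporin Os02g0666200 held 140 FPKM on day 3 against 958 FPKM on day 2 in total RNA and 282 against 1452 FPKM in mRNA, and it had been higher on days 1 and 2 than in well-watered plants. The delta-tonoplast protein Os06g0336200, a channel of the vacuole membrane, held 5.84 against 56.9 FPKM and 9.77 against 74.0 FPKM. Another tonoplast protein, Os05g0231700, rose to 73.0 against 18.4 FPKM and to 54.7 against 13.3 FPKM.

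In growth hormone pathways single genes moved strongly, within lists that were mostly not called. Of 27 genes for gibberellin metabolism and GRAS proteins 1 rose (3.70%) and 4 fell (14.8%), against 7.38% and 15.1% of all genes. Under median-ratio scaling 3 were on each side. GA C20oxidase2 (Os01g0883800), of the family that makes active gibberellins, fell to 0.449 FPKM on day 3 against 23.5 FPKM on day 2 in total RNA and to 0.538 against 37.0 FPKM in mRNA. A GA 2-oxidase, of the family that inactivates gibberellins, fell as well, to 9.31 against 29.1 FPKM and to 6.62 against 21.4 FPKM (Os01g0757200). A-type response regulators, which are switched on by cytokinin and dampen its signal, went both ways, with 2 of 6 higher and 1 lower. The regulator Os01g0952500 held 61.6, 3.24, 2.46 and 25.5 FPKM in total RNA over well-watered, day 1, day 2 and day 3 plants and 43.4, 2.49, 1.56 and 18.0 FPKM in mRNA, so that it returned part of the way to its watered level. Os02g0557800, Os11g0143300 and Os12g0139400, also high in well-watered plants, stayed at or below 1.00 FPKM on day 3.

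Within several families closely related enzymes moved in opposite directions. Catalase B (Os06g0727200) stood at 437 FPKM on day 3 against 200 FPKM on day 2 in total RNA and at 673 against 319 FPKM in mRNA, while catalase A (Os02g0115700) fell to 6.85 against 40.3 FPKM and to 18.4 against 91.5 FPKM. Their list, with ascorbate peroxidases and superoxide dismutases, had 1 of 22 genes higher (4.55%) and 6 lower (27.3%). The shares of all genes were 7.38% and 15.1%, and under median-ratio scaling 4 genes of the list were on each side. The glutamine synthetase described as a root isozyme (Os03g0712800) rose to 69.6 against 3.53 FPKM and to 70.5 against 3.12 FPKM. The chloroplast isozyme of the shoot (Os04g0659100), which reassimilates ammonia from photorespiration, fell to 12.7 against 169 FPKM and to 10.5 against 200 FPKM. It belongs to a list of nitrate and ammonium uptake and assimilation in which 14 of 30 measured genes fell and the root isozyme alone rose, with 6 lower and 2 higher under median-ratio scaling.

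Metallothioneins, small metal-binding proteins among the most abundant transcripts of these leaves, had 3 of 9 members higher and 3 lower, with 4 and 2 under median-ratio scaling. Type 3 Os01g0200700 held 6280 FPKM on day 3 against 21436 FPKM on day 2 in total RNA and 4835 against 17820 FPKM in mRNA. Os03g0288000 rose to 803 against 150 FPKM and to 1093 against 191 FPKM, and type 2 Os01g0149800 rose to 5024 against 1943 FPKM and to 5556 against 2257 FPKM. Adjacent ABC transporters on chromosome 1 also parted. Os01g0695800 held 53.3 against 8.84 FPKM and 54.0 against 4.94 FPKM, and Os01g0695700 held 1.24 against 5.58 FPKM and 0.595 against 3.90 FPKM.

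In carbon and nitrogen metabolism single genes had large steps within lists that held calls on both sides. Beta-amylase Os03g0141200, which cuts maltose from starch, held 692 FPKM on day 3 against 114 FPKM on day 2 in total RNA and 601 against 132 FPKM in mRNA. A neutral invertase gene, Os01g0332100, which splits sucrose, held 871 against 198 FPKM and 672 against 134 FPKM. The granule-bound starch synthase Ib gene Os07g0412100 fell to 14.0 against 65.0 FPKM and to 10.5 against 43.9 FPKM. In the whole starch and sucrose list 5 of 48 rose (10.4%) and 7 fell (14.6%), against 7.38% and 15.1% of all genes. Under median-ratio scaling 9 were higher and 5 lower. A hexose transporter, Os03g0218400, rose to 918 against 217 FPKM and to 1162 against 244 FPKM, in a list of sugar transporters with 4 of 34 higher and 9 lower, or 9 higher and 5 lower under median-ratio scaling. Os02g0783625, similar to the enzyme that begins lysine breakdown, rose to 1597 against 561 FPKM and to 1351 against 531 FPKM.

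At the cell surface the list of cuticle, wax and lipid transfer genes had 6 of 38 higher and 12 lower, with 11 and 10 under median-ratio scaling. The lipid-transfer protein gene Os05g0550600 reached 153 FPKM on day 3 against 7.27 FPKM on day 2 in total RNA and 190 against 9.06 FPKM in mRNA. Os05g0574600, a 3-ketoacyl-CoA synthase of the kind that lengthens fatty acids for wax, reached 121 against 10.9 FPKM and 154 against 19.5 FPKM. Class III peroxidases, which act in the cell wall, had 11 of 33 lower, all 11 on all 4 scalings, and 1 higher. Os07g0677200 had the lowest ratio of all described genes named by the rule, with 2.49 against 120 FPKM and 0.787 against 71.6 FPKM (log2 ratios of -5.12 and -5.34). Among the proteases 21 of 61 fell and 2 rose, with 8 on each side under median-ratio scaling.

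Large steps were also seen in other described genes. Os01g0654400, described as similar to a salt tolerant correlative protein, held 504 FPKM on day 3 against 4.40 FPKM on day 2 in total RNA and 559 against 4.88 FPKM in mRNA (6.55 and 6.57). The serine carboxypeptidase gene Os05g0582500 held 176 against 4.81 FPKM and 181 against 3.31 FPKM. A laccase, an enzyme that oxidises phenols in the cell wall, held 156 against 5.74 FPKM and 148 against 4.14 FPKM (Os12g0257600). On the lower side a carotenoid oxygenase gene, Os02g0704000, held 3.27 against 82.3 FPKM and 2.65 against 83.2 FPKM, and Os12g0105300, with the actin-binding FH2 domain, held 16.6 against 308 FPKM and 12.7 against 276 FPKM. Genes with no described function made up 21.2% of the higher genes, 21.2% of the lower genes and 23.0% of all. Os03g0133100 is such a gene, at 280 against 7.61 FPKM and 223 against 5.43 FPKM.

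The clock gene LHY (Os04g0583900), which is expressed around dawn, had the next largest step after Os01g0654400 among described genes. It held 142 FPKM on day 3 against 2.03 FPKM on day 2 in total RNA and 115 against 1.74 FPKM in mRNA, after values below 1 FPKM in well-watered and day 1 plants. PRR73 (Os03g0284100), another clock component, fell to 188 against 425 FPKM and to 226 against 464 FPKM. Of 11 measured clock genes 2 rose, 2 fell and 7 were not called, against 4 higher and 1 lower under median-ratio scaling. GIGANTEA (Os01g0182600) held 515 against 292 FPKM in total RNA and 705 against 738 FPKM in mRNA. The labels give no hour of harvest, and its part in these results was not tested. Markers of other tissues summed to small shares: seed storage and oil body genes to 129 FPKM on day 3 against 84.1 FPKM on day 2 in total RNA and 278 against 175 FPKM in mRNA, with 7 of 29 at 0 in each of these total RNA libraries. The pollen and anther list summed to 652 against 1567 FPKM and to 949 against 2400 FPKM, nearly all of it from Os11g0167800, described as desiccation-associated, at 558 against 1497 FPKM and 876 against 2348 FPKM. The root marker was not analysed here.

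Most called genes were at an extreme of the 4 treatments on day 3. Of the 1336 higher genes 1297 (97.1%) had their highest value on day 3 in both kinds, against 21.5% of all genes. Another 28 (2.10%) were still below their well-watered level, against 55.1% of all. Of the 2742 lower genes 2561 (93.4%) had their lowest value on day 3, against 49.4% of all, and 370 (13.5%) had peaked on day 2, against 12.3% of all. Of the lower genes 144 (5.25%) were still above their well-watered level, against 36.9% of all. These shares in part follow from the call itself, since a gene called higher cannot peak on day 2.

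The genes of the early response were also followed through the step. On day 1, 1256 genes (6.93%) were higher than in well-watered plants in both kinds, a comparison that shares no library with the step. Of these, 232 (18.5%, against 7.38% of all genes) rose between day 2 and day 3, and 196 (15.6%) fell, a share close to the 15.1% of all genes. Of 446 genes (2.46%) lower on day 1, 115 (25.8%, against 15.1% of all) fell and 38 (8.52%, against 7.38% of all) rose. Day 1 to day 2 was set against the step across kinds, since within a kind they share the day 2 library. Of 1029 genes higher on day 2 than on day 1 in total RNA, 445 (43.2%) were higher on day 3 than on day 2 in mRNA, against 8.45% of all genes, and 95 (9.23%) were lower, against 22.4% of all. Of 1119 genes lower on day 2 than on day 1 in total RNA, 619 (55.3%) were lower and 22 (1.97%) higher in the step in mRNA. Both kinds may come from the same day 2 plants.

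Called genes were more frequent among abundant transcripts. At a mean of 100 FPKM or more, 12.2% of genes were higher and 23.3% lower, while from 1 to 5 FPKM the shares were 6.17% and 8.62%. The pseudocount of 1 lowers the ratios of the weakest genes, so these shares are not comparable as rates of change. At the edge of the filter, Os03g0103900 (1.90 against 1.77 FPKM in total RNA, 2.38 against 0.771 FPKM in mRNA) was just kept, and Os01g0133100 (5.56 against 0.587 FPKM, 3.42 against 0.391 FPKM) was just left out.

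Genes that moved in the same direction were often neighbours. Another higher gene lay within 10 kb for 20.4% of the higher genes, while a higher gene lay that near to 10.7% of all genes, and for lower genes the shares were 29.3% and 22.2%. Tandem copies, which may share reads, are part of these runs, and the genes named here were chosen after their values were seen. These shares and runs rest on the calls on FPKM, and 44.1% of the 2742 lower genes were lower on all 4 scalings. Along chromosome 3 (27779100 to 27792047), 4 germin-type oxalate oxidase genes all rose; the most abundant, Os03g0694000, reached 1232 FPKM on day 3 against 450 FPKM on day 2 in total RNA and 1560 against 463 FPKM in mRNA. A run of 4 peroxidase genes on chromosome 7 (28660188 to 28685862), with Os07g0677200 among them, fell as a whole. Along chromosome 9 (18514776 to 18541201), 5 neighbouring genes fell, 3 for heat shock proteins 82 and 81-3 alternating with 2 peptidase A1 genes. Os09g0482100, for heat shock protein 82, held 190 against 392 FPKM and 163 against 333 FPKM, close to the 2-fold threshold in both kinds. The peptidase gene next to it, Os09g0482200, held 10.7 against 37.9 FPKM and 6.86 against 20.8 FPKM.

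Of 298 noncoding genes compared, 25 rose (8.39%) and 30 fell (10.1%), against 7.36% and 15.2% of coding genes. Of the 298, 17 are shorter than 200 bases. The kinds agreed less for noncoding than for coding genes, with r across genes of 0.777 against 0.933. The noncoding gene Os01g0777900 (chromosome 1, 32934209 to 32934997) had the largest step upward, with 61.6 FPKM on day 3 against 2.99 FPKM on day 2 in total RNA and 52.5 against 1.37 FPKM in mRNA. It had fallen before that, with 7.57, 3.85 and 2.99 FPKM in total RNA of well-watered, day 1 and day 2 plants. Os06g0318800 (chromosome 6, 12359510 to 12360112) was far more abundant and rose on every day, with 21.7, 66.8, 174 and 940 FPKM in total RNA and 22.2, 63.8, 179 and 1432 FPKM in mRNA over the 4 treatments. A weaker noncoding gene a few kilobases away, Os06g0319133, rose as well, to 23.5 against 3.59 FPKM and to 21.0 against 4.04 FPKM. Os02g0731300 (chromosome 2, 30459392 to 30464135) fell most, to 3.06 against 27.8 FPKM and to 5.93 against 61.5 FPKM, after a rise until day 2. No source used here gives the strand setting of the authors' counting, so reads of a gene on the opposite strand may be included.

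Some genes changed their main transcript in the step. Of 3028 genes with at least 2 transcripts in both tables and 5 FPKM, 45 (1.49%) had another main transcript on day 3 than on day 2, the same in both kinds, and 12 of the 45 were also called as whole genes. In a further 338 genes the main transcript changed in 1 kind only, so the estimates of transcript shares are less stable than gene sums. The NAM domain gene Os08g0535800, chosen after its values were seen, drew 94.2% of its FPKM from transcript 01 on day 3 against 0.447% on day 2 in total RNA and 96.1% against 0.0676% in mRNA. The gene as a whole was not called, at 150 against 275 FPKM and 136 against 238 FPKM. For an amino acid transport gene, Os02g0670900, which was also called higher as a whole, the share of the transcript that was main on day 3 was 99.9% against 13.6% on day 2 in total RNA and 99.9% against 12.2% in mRNA.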

How the data were processed

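Leaf RNA of 8 libraries was sequenced, 1 per treatment and library kind. The authors deposited FPKM per transcript, 1 table for each library kind, per the file headers. The deposited log2 columns of the same tables are, from their values, quantile-normalized log2(FPKM + 1), and serve as an alternative scaling. Coordinates are of IRGSP-1.0. The submitters' processing notes list the aligners HISAT2 2.0.5 and Bowtie2 2.2.6, the assembler StringTie 1.3.3b, and for read quality Trimmomatic 0.32 and FastQC 0.10.0, without saying in what order they ran or how strand was set. FPKM sums were 678548 to 755487 per library. The most frequent value of FPKM multiplied by length among transcripts of low FPKM was taken as 1 fragment, which is an assumption. Between 7.23% and 9.96% of these low values lay at it, depending on the library. On that basis the libraries held 16.3 to 24.6 M fragments. There, 1 FPKM of a transcript of median length stands for 23.8 to 35.7 fragments.

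FPKM was summed per gene, and the step was computed as the log2 ratio with a pseudocount of 1. A gene was kept when both tables held it and its mean reached 1 FPKM in each of them, and a size of 2-fold in both kinds was used as the call. No test was possible with 1 library per group. The 71 lists come from words in the file descriptions. The step and the lists were chosen with earlier results of these data known. Genes named are the 15 highest and 15 lowest described genes by the smaller ratio, the 4 highest and 4 lowest noncoding genes, up to 3 called members of each list on a side, genes with opposite calls in the kinds, and genes nearest to the filter. Not all of these are printed. Genes outside the rule (members of fully listed families, abundant genes, neighbours, transcripts in total RNA, transcript switches and Os03g0133100) were chosen after their values were seen. Alternatives were pseudocounts of 0.1 and 5, 3 other filters, 3 other scalings, each kind alone and a size of 4-fold. The calculation was tested on simulated data. Python 3.11.15, pandas 2.3.3, numpy 2.4.6 and matplotlib 3.10.9 were used.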

Additional observations from a re-analysis of the deposited data

Results flagged for a closer look

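In 5 genes the library kinds gave steps of at least 2-fold in opposite directions. With 1 library per day and kind, the difference between the kinds was not tested. The photosystem I subunit II gene Os08g0560900 held 53.2 FPKM on day 3 against 196 FPKM on day 2 in total RNA, but 54.7 against 10.5 FPKM in mRNA, with log2 ratios of -1.86 and 2.28. Its day 2 value in mRNA stands apart, since day 1 held 977 FPKM there and 1027 FPKM in total RNA. Os05g0495300, a conserved hypothetical gene, held 237 against 30.2 FPKM in total RNA and 5.26 against 19.6 FPKM in mRNA (2.93 and -1.72). CBL-interacting protein kinase 16 (Os09g0418000), a kinase of calcium signalling, held 2.85 against 24.5 FPKM in total RNA and 14.9 against 6.77 FPKM in mRNA (-2.72 and 1.03). The noncoding gene Os03g0399466 held 5.32 against 1.43 FPKM and 2.29 against 6.16 FPKM (1.38 and -1.12). Os07g0581400, listed as a hypothetical gene, held 0.0221 against 2.43 FPKM and 4.23 against 0.0140 FPKM (-1.75 and 2.37).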

How the results depend on the processing

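No paired analysis was possible because each group holds 1 library and no test was run. On FPKM, 1336 genes were higher and 2742 lower, and the median gene stood at -0.35 in total RNA and -0.46 in mRNA. A pseudocount of 0.1 gave 4326 lower genes, and a pseudocount of 5 gave 1025 lower genes and medians of -0.20 and -0.27. Without a filter the medians were -0.13 and -0.20. Median-ratio scaling gave 2392 higher and 1288 lower genes and turned the medians to 0.01 and 0.03. The deposited quantile-normalized values gave 1462 lower genes and medians of -0.14 and -0.14. At a size of 4-fold 435 genes were higher and 417 lower. Of the 321 called genes named by the rule, median-ratio scaling left 34 under the size used, the quantile-normalized values 25 and a pseudocount of 5 left 72. Depth limits weakly expressed genes most, and the spread between plants is unknown.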
